A study of Homo sapiens with 4 samples.

Results

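The genes described here are 20 genes of the response driven by the transcription factor ATF4, with the tRNA exporter XPOT counted among them, and 17 cytosolic aminoacyl-tRNA synthetases. The 37 genes were given by symbol, with no threshold on their values but with earlier results of these data known. Each matched 1 of the 61533 gene identifiers in the deposited count table. RNA sequencing measured them in Caki-1 cells, an established human renal carcinoma line, in 2 groups of 2 libraries. The shTFE3 libraries came from cells transduced with lentivirus that carried a short hairpin RNA against TFE3, and the shControl libraries from cells given a control sequence. Both groups were infected, divided into dishes after 24 hours and given puromycin at 1 µg/ml 12 hours later. RNA was collected after 3 days of selection. Puromycin, an inhibitor of translation, was thus present in both groups. The labels give the genotype as WT for the shControl and TFE3-KD for the shTFE3 libraries, and name no withdrawal of glucose or amino acids for these libraries. Nothing in them gives the number of hairpins, any cloning of the cells, or whether libraries of a group came from separate infections. The p-values below therefore rest on the spread between these libraries, which may be technical. The tests share information on that spread over all genes tested.

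ATF4 is the effector of the integrated stress response. Kinases that sense amino acid shortage, unfolded protein in the endoplasmic reticulum, viral RNA or lack of heme phosphorylate the translation factor eIF2, which lowers general translation and favours translation of the ATF4 message. ATF4 pairs with C/EBP proteins on composite DNA sites and is known to drive genes of amino acid uptake and synthesis, tRNA charging, redox balance and cell death. Most cytosolic synthetases, which load amino acids onto tRNA, are known ATF4 targets, and they are also needed by any translating cell. ATF4 protein is set largely by translation, which an mRNA count does not measure. TFE3, of the MiT/TFE family of lysosomal and nutrient-responsive factors, has been linked to ATF4 expression under stress.

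Library totals lay between 17270180 and 17742519 counts, and levels are given as CPM, counts relative to the total of a library after composition scaling. A level of 3 counts was worth 0.169 to 0.174 CPM, for counting error only. TFE3 mRNA, the check of the labels, measured 131 and 128 CPM with the control sequence against 70.1 and 66.9 CPM with the TFE3 hairpin (log2 fold change -0.92, SE 0.062, edgeR adjusted p 5.6e-11). Of 8 markers of renal epithelium or renal carcinoma, 6 had a mean of at least 10 counts, and the list summed to 2285 to 2350 CPM. The other 2, among them PAX2 with 0 counts, had at most 5 counts in every library. All 5 leukocyte markers had at most 5 counts in every library (sums from 0 to 0.223 CPM). Endothelial markers summed to 2.81 to 4.06 CPM, nearly all from PECAM1, and fibroblast markers to 19.1 to 19.9 CPM, from COL1A1 and PDGFRB. In bulk RNA, fewer cells of a type and less RNA per cell cannot be told apart.

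A minority of these genes differed between the groups, in both directions among the ATF4-response genes and only upward among the synthetases that passed the test. Of 36 members with enough counts, 9 rose and 3 fell in shTFE3 at an edgeR adjusted p under 0.05. Among all 15950 genes tested, 23.3% passed, 10.3% rising and 12.9% falling. In the ATF4-response genes, 5 of 19 rose (ATF5, CEBPB, CHAC1, GDF15 and XPOT), 3 fell (STC2, VLDLR and CTH) and 11 did not pass. In the synthetases, 4 of 17 rose (WARS1, KARS1, EPRS1 and LARS1), 0 fell and 13 did not pass. The count of falling synthetases was also 0 at an unadjusted p under 0.05, and 0 by DESeq2 and limma-voom. No member changed 2-fold. The share of synthetases that passed was near the share of all genes, and synthetases are measured with more counts than most genes. Among the 4176 genes whose mean reached 1000 counts, 35.2% passed. Libraries of the 2 groups did not overlap in CPM for 24 of the 36 members, 15 higher and 9 lower in shTFE3, beside 60.3% of all genes tested.

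**Figure D1:**
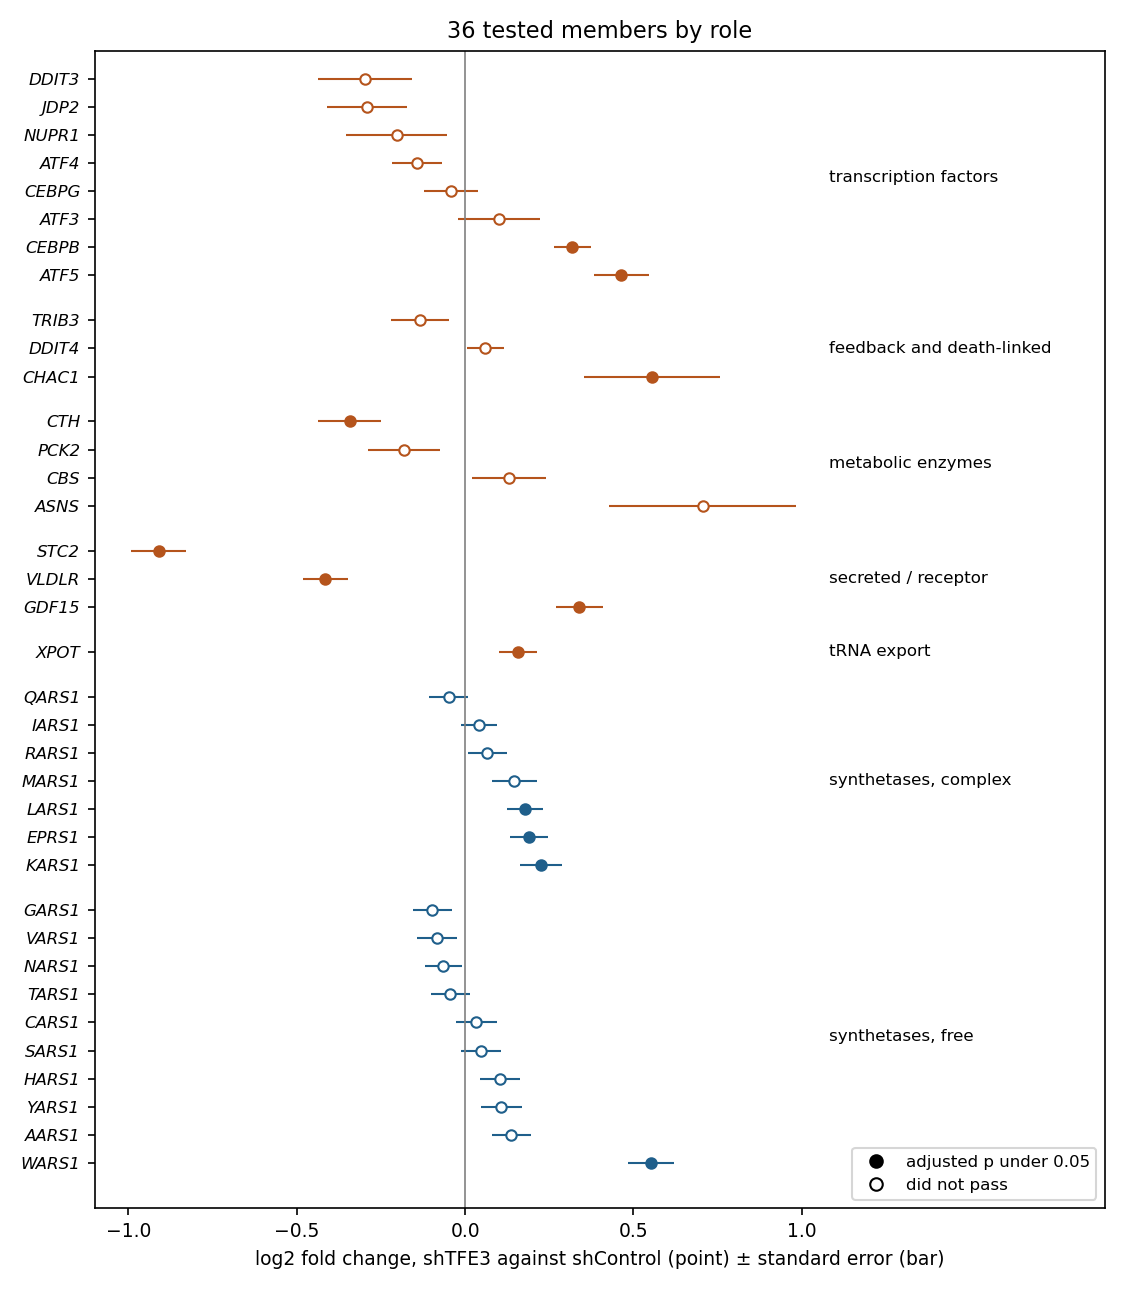
Log2 fold change of shTFE3 against shControl for each tested member (points) with its standard error (bars), grouped by role; filled points passed at an edgeR adjusted p under 0.05. ATF4-response genes (orange) lie from -0.91 to 0.71, and synthetases (blue) from -0.10 to 0.55.

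Promoter sequence was read because ATF4 and C/EBP proteins bind a composite site, TGATGNAA, and MiT/TFE proteins bind the E-box CACGTG and its longer form TCACGTGA. RefSeq windows on GRCh38.p14, from 250 bases before to 50 bases after each start, matched 33 of the 37 members. Both strands were searched, and CACGTG is contained in TCACGTGA. TGATGNAA was found in 6 of 19 ATF4-response genes (31.6%) and 7 of 14 synthetases, against 4.46% of 27305 genes with a window. The matches that lie fully before the start are printed as 30 bases on the strand of the gene, with TGATGNAA or its reverse complement in capitals. The last line shows the CACGTG match in ATF4 itself.
CHAC1: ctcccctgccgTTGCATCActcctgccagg
ATF3: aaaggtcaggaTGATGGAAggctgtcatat
ASNS: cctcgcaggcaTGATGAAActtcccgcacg
FGF21: aaacaccaggaTTGCATCAgggaggaggag
CEBPG: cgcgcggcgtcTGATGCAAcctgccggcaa
JDP2: tatatagccggggcTGATGCAAcccgtccc
AARS1: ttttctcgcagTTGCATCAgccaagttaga
GARS1: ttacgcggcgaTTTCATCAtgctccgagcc
IARS1: cccgcattttcagcgcgTTGCATCAcctcc
ATF4: ggaggagacggtCACGTGgtcgcggcggaa

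Of these windows, CHAC1 lies at chr15:40953251-40953280 (plus strand), with its motif beginning 209 bases before the start. ATF3 lies at chr1:212565205-212565234 (plus), ASNS at chr7:97872458-97872487 (minus), FGF21 at chr19:48755459-48755488 (plus), CEBPG at chr19:33374060-33374089 (plus) and JDP2 at chr14:75427992-75428021 (plus). The synthetase windows are AARS1 at chr16:70289675-70289704 (minus), GARS1 at chr7:30594834-30594863 (plus) and IARS1 at chr9:92293698-92293727 (minus). The ATF4 window is chr22:39520465-39520494 (plus). In the other 4 synthetases with a match (CARS1, MARS1, NARS1 and TARS1) the 8 bases touched or followed the start. The form TTGCATCA or its complement TGATGCAA recurred in CHAC1, FGF21, CEBPG, JDP2, AARS1 and IARS1, and in these 4 synthetases. CACGTG was found in 1 ATF4-response gene, ATF4, and 1 synthetase, IARS1, against 8.77% of genes. TCACGTGA and the cyclic AMP response element TGACGTCA were in 0 of these windows, against 1.18% and 2.25% of genes. A match describes the letters in the window and is not evidence of binding.

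Among the transcription factors, ATF5 and CEBPB rose while ATF4 itself did not pass. ATF4 (chromosome 22, 39519695 to 39522685) had 193 and 198 CPM in shControl and 156 and 198 CPM in shTFE3, so that 1 knockdown library lay below both controls and the other at their level. The difference of -0.14 on the log2 scale (SE 0.074) did not pass (edgeR adjusted p 0.178). Without shTFE3 replicate 2 the value was -0.33 and passed (edgeR adjusted p 0.0385), and without shTFE3 replicate 1 its sign turned, at 0.02 (0.826). ATF5, an ATF4 relative translated in a similar way under stress (chromosome 19, 49928702 to 49933935), had 27.3 and 30.5 CPM in shControl and 40.7 and 39.0 CPM in shTFE3. Both knockdown libraries were above both controls (log2 fold change 0.46, SE 0.082, edgeR adjusted p 0.000145). CEBPB, a C/EBP factor of inflammation and metabolism (chromosome 20, 50190734 to 50192689), had 204 and 194 CPM against 246 and 251 CPM. The groups did not overlap (log2 fold change 0.32, SE 0.056, edgeR adjusted p 0.000127). ATF5 shares 701 exonic bases with genes on the opposite strand, NUP62 among them, so its level is uncertain where reads were counted without strand. The rise of ATF5 missed the threshold when either knockdown library was left out (edgeR adjusted p 0.0543 without replicate 1 of shTFE3, 0.0508 without replicate 2).

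The other 5 factors did not pass, and their direction was mixed. DDIT3, the pro-death factor CHOP, had 13.0 and 14.9 CPM in shControl and 9.13 and 13.6 CPM in shTFE3 (log2 fold change -0.30, SE 0.140, edgeR adjusted p 0.132). Its shTFE3 libraries differed from each other by 0.57 in log2 CPM, more than the groups did. DDIT3 shares 413 exonic bases with opposite-strand genes, chiefly the synthetase MARS1, so reads of that stretch cannot be assigned without strand. JDP2, a repressor of AP-1 sites, had 13.8 and 14.5 CPM against 10.5 and 12.6 CPM (log2 fold change -0.29, edgeR adjusted p 0.0760). NUPR1, a stress-induced chromatin factor, had values from 7.01 to 10.2 CPM over the libraries (log2 fold change -0.20, edgeR adjusted p 0.363). ATF3, a stress-induced repressor, was between 9.85 and 11.6 CPM (0.10, adjusted p 0.609), and CEBPG, a partner of ATF4 on composite sites, between 31.9 and 34.2 CPM (-0.04, adjusted p 0.761). For ATF3, CEBPG, DDIT3 and NUPR1 the libraries of the groups overlapped.

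Of the feedback and death-linked genes, CHAC1 rose from a low level. CHAC1, which degrades glutathione (chromosome 15, 40952962 to 40956519), had 2.76 and 3.52 CPM in shControl and 3.90 and 5.34 CPM in shTFE3, from 47, 60, 70 and 95 counts. The groups did not overlap, and the log2 fold change of 0.56 (SE 0.202) had an edgeR adjusted p of 0.0486, close to the threshold. The adjusted p was 0.362 by DESeq2, 0.0603 by limma-voom, and 0.321, 0.0808 and 0.429 without shControl replicate 1, shTFE3 replicate 1 and shTFE3 replicate 2. TRIB3, a pseudokinase that dampens ATF4 and AKT, had 53.3 and 47.7 CPM against 41.3 and 50.8 CPM, with overlapping groups (log2 fold change -0.13, edgeR adjusted p 0.287). DDIT4, an inhibitor of mTORC1 signalling, had 235 and 238 CPM against 245 and 248 CPM. Its groups did not overlap, but the log2 fold change of 0.06 (SE 0.054) did not pass (edgeR adjusted p 0.477).

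Among the metabolic enzymes only CTH passed. CTH, the last enzyme of cysteine synthesis from methionine (chromosome 1, 70411218 to 70439851), had 22.2 and 24.0 CPM in shControl and 18.1 and 18.3 CPM in shTFE3. It fell by 0.34 on the log2 scale (SE 0.094, edgeR adjusted p 0.00914), with no overlap of the groups. The adjusted p was 0.124 by DESeq2, and 0.113, 0.111 and 0.111 without shControl replicate 2, shTFE3 replicate 1 and shTFE3 replicate 2. CBS, the enzyme before it in that pathway, had 18.5 and 14.9 CPM against 19.03 and 17.5 CPM (log2 fold change 0.13, edgeR adjusted p 0.439). A near-identical copy of CBS had 17 to 26 counts, so counts of CBS may be split. PCK2, the mitochondrial enzyme that makes phosphoenolpyruvate, had 16.9 and 17.3 CPM against 13.7 and 16.4 CPM (-0.18, adjusted p 0.241). ASNS, which makes asparagine and is the classic ATF4 target, had few counts, 23 and 19 in shControl against 38 and 34 in shTFE3. That is 1.35 and 1.12 CPM against 2.11 and 1.91 CPM. Both knockdown libraries were higher, and the log2 fold change of 0.71 (SE 0.278) was the highest of all members, but the edgeR adjusted p was 0.0682. ASNS shares 1985 of its 4455 exonic bases with a same-strand gene, ENSG00000284707, that had 4 to 10 counts, so its absolute level is uncertain.

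The secreted and receptor genes held the largest fall of all members. STC2, a secreted glycoprotein (chromosome 5, 173314713 to 173329503), had 163 and 135 CPM in shControl and 71.9 and 86.6 CPM in shTFE3. The knockdown level was 53.2% of the control level, 79.3 ± 10.4 against 149 ± 19.7 CPM (SD, n = 2), and the groups did not overlap. STC2 fell by 0.91 on the log2 scale (SE 0.081, edgeR adjusted p 6.24e-09). VLDLR, a lipoprotein receptor (chromosome 9, 2621834 to 2660053), had 91.6 and 98.5 CPM against 68.5 and 74.0 CPM. It fell by 0.42 (SE 0.067, edgeR adjusted p 4.21e-05). GDF15, a secreted stress hormone (chromosome 19, 18374731 to 18389176), moved the other way, with 117 and 97.3 CPM in shControl and 135 and 136 CPM in shTFE3. It rose by 0.34 (SE 0.070, edgeR adjusted p 0.000729), and the control libraries differed from each other by -0.27 in log2 CPM (replicate 2 minus 1). The rise of GDF15 did not pass without shControl replicate 2 (adjusted p 0.0805), shTFE3 replicate 1 (0.125) or shTFE3 replicate 2 (0.148). FGF21, an endocrine hormone of nutrient stress, had 0 counts in every library, which allows up to 0.169 to 0.174 CPM.

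XPOT, which exports mature tRNA from the nucleus, had 280 and 272 CPM in shControl and 297 and 319 CPM in shTFE3. The groups did not overlap, but the rise was small (log2 fold change 0.16, SE 0.056, edgeR adjusted p 0.0436). It did not pass by DESeq2 (adjusted p 0.0784), nor without any 1 library (0.143 and 0.307 without shControl replicates 1 and 2, 0.0619 and 0.262 without shTFE3 replicates 1 and 2).

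**Figure D2:**
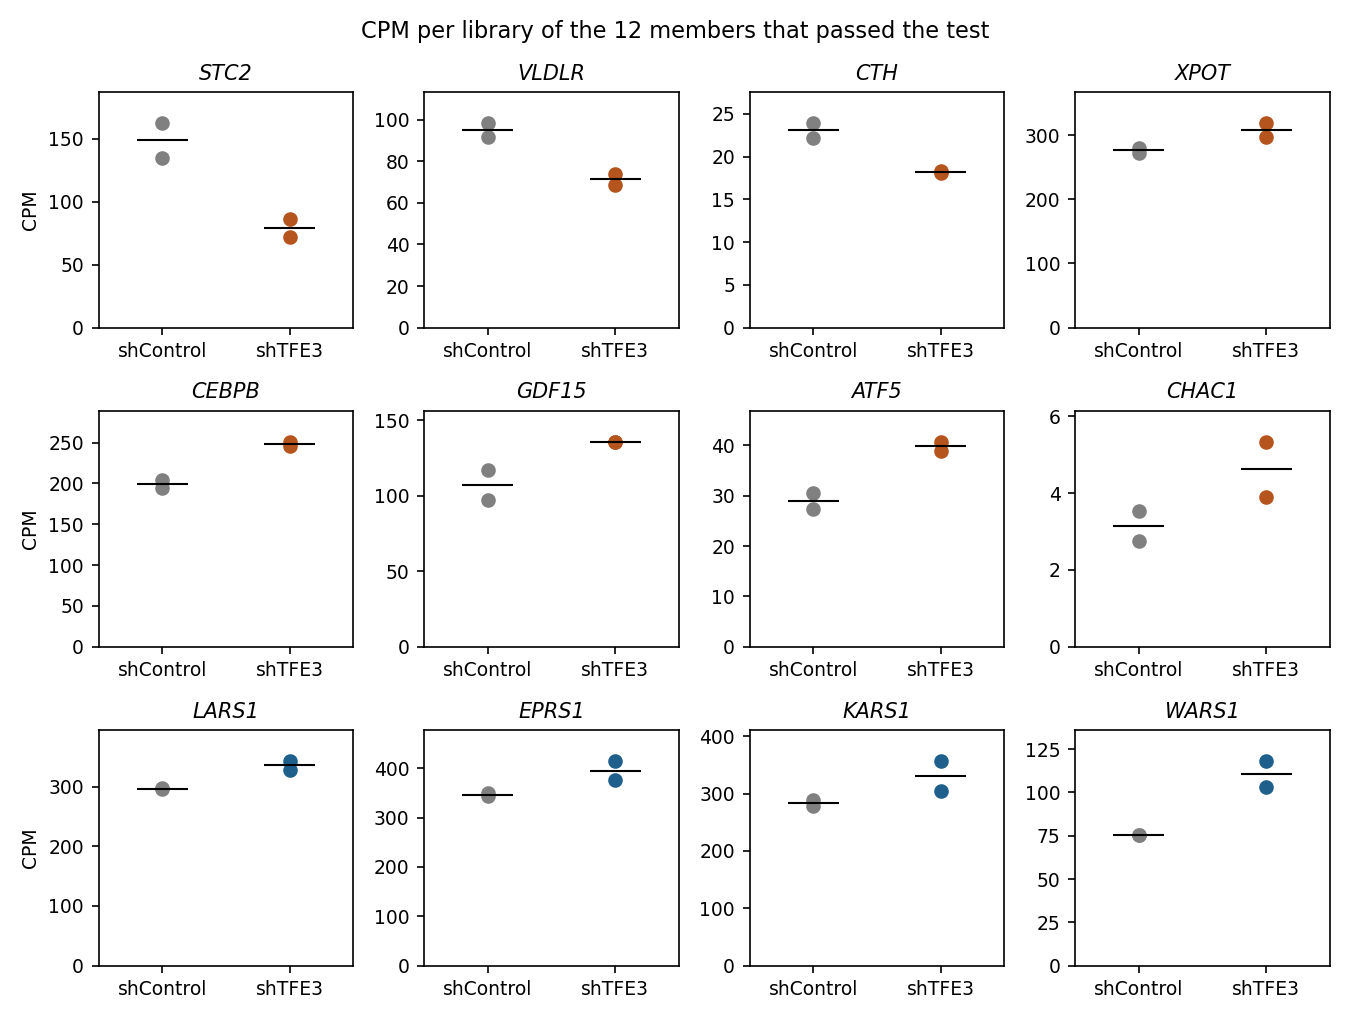
CPM in each library (points) with the group mean (line) for the 12 members that passed; each axis starts at 0, grey marks shControl, orange the ATF4-response genes and blue the synthetases in shTFE3. STC2 falls from 163 and 135 CPM to 71.9 and 86.6 CPM, while WARS1 rises from 75.7 and 75.4 CPM to 103 and 118 CPM.

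Of the synthetases, WARS1 stood furthest from the control level. WARS1 charges tryptophan tRNA and is also known as an interferon-induced gene (chromosome 14, 100333788 to 100376805). It had 75.7 and 75.4 CPM in shControl and 103 and 118 CPM in shTFE3, means of 75.5 ± 0.22 and 111 ± 10.5 CPM (SD, n = 2). The shTFE3 level was 147% of the control level (log2 fold change 0.55, SE 0.068, edgeR adjusted p 1.13e-06), and no library of the groups overlapped. The WARS1 rise, like those of CEBPB and the falls of STC2 and VLDLR, passed in each alternative but the test with no filter on low counts, where no member passed. WARS1 shares 672 exonic bases with opposite-strand genes.

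Of the 7 synthetases held in the multisynthetase complex, a cytosolic assembly of charging enzymes and scaffold proteins, 3 rose and 4 did not pass. KARS1, for lysine, had 278 and 289 CPM in shControl and 305 and 357 CPM in shTFE3 (log2 fold change 0.23, SE 0.063, edgeR adjusted p 0.0105). EPRS1, for glutamate and proline, had 344 and 349 CPM against 375 and 415 CPM (0.19, SE 0.057, edgeR adjusted p 0.0169). LARS1, for leucine and a leucine sensor for mTORC1, had 297 and 296 CPM against 329 and 343 CPM (0.18, SE 0.054, edgeR adjusted p 0.0178). In these 3 genes every shTFE3 library exceeded both controls, and each call was lost when some single library was left out. KARS1 did not pass without shControl replicate 1 (adjusted p 0.0937) or shTFE3 replicate 2 (0.264). EPRS1 did not pass without shControl replicates 1 (0.149) and 2 (0.0890) or shTFE3 replicate 2 (0.200). LARS1 did not pass without any 1 library (0.0532 to 0.155). The other members of the complex were MARS1 for methionine (log2 fold change 0.15, edgeR adjusted p 0.123), RARS1 for arginine (0.07, 0.456), IARS1 for isoleucine (0.04, 0.650) and QARS1 for glutamine (-0.05, 0.597). Of these, MARS1 had 127 and 123 CPM against 127 and 149 CPM, so that only shTFE3 replicate 2 stood clearly above the controls.

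Of the 10 synthetases outside the complex, WARS1 alone rose. AARS1, for alanine and the most abundant by length, had 437 and 421 CPM in shControl and 448 and 496 CPM in shTFE3 (log2 fold change 0.14, SE 0.057, edgeR adjusted p 0.0853). It passed only when no composition factors were used (0.17, edgeR adjusted p 0.0277). YARS1 for tyrosine and HARS1 for histidine had values of 0.11 and 0.10 (adjusted p 0.218 and 0.225), and SARS1 for serine and CARS1 for cysteine 0.05 and 0.03. The rest had negative values and did not pass either. GARS1, for glycine, had 317 and 317 CPM against 281 and 312 CPM (-0.10, SE 0.058, edgeR adjusted p 0.242). VARS1 for valine, NARS1 for asparagine and TARS1 for threonine had -0.08, -0.07 and -0.04.

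Set side by side, the stress effectors spread widely in both directions and the synthetases narrowly. The SD of the log2 fold changes was 0.39 over the 19 tested ATF4-response genes and 0.16 over the 17 synthetases, beside 0.38 over all genes tested. The median absolute log2 fold change was 0.29 and 0.10, beside 0.17 over all genes and 0.12 over genes whose mean reached 1000 counts. The synthetases are the more deeply counted, with a median of the mean counts of 4078.5 against 570.3, and the median SE was 0.058 against 0.086. Their narrower spread was therefore also measured with less error. The median log2 fold change was -0.04 for the ATF4-response genes and 0.07 for the synthetases, beside 0.00 over all genes. Of the synthetases 12 had a positive and 5 a negative value, and of the ATF4-response genes 9 and 10. In mean log2 CPM the ATF4-response genes stood at 5.06 and 5.08 in shControl and 4.99 and 5.13 in shTFE3, with no separation of the groups. The synthetases stood at 7.70 in both control libraries and 7.73 and 7.85 in shTFE3. The gap between the lists, ATF4-response minus synthetase, was lower in both knockdown libraries (-2.74 and -2.72) than in the control libraries (-2.64 and -2.62). No test was made of the lists' means, since the members were chosen with results known.

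**Figure D3:**
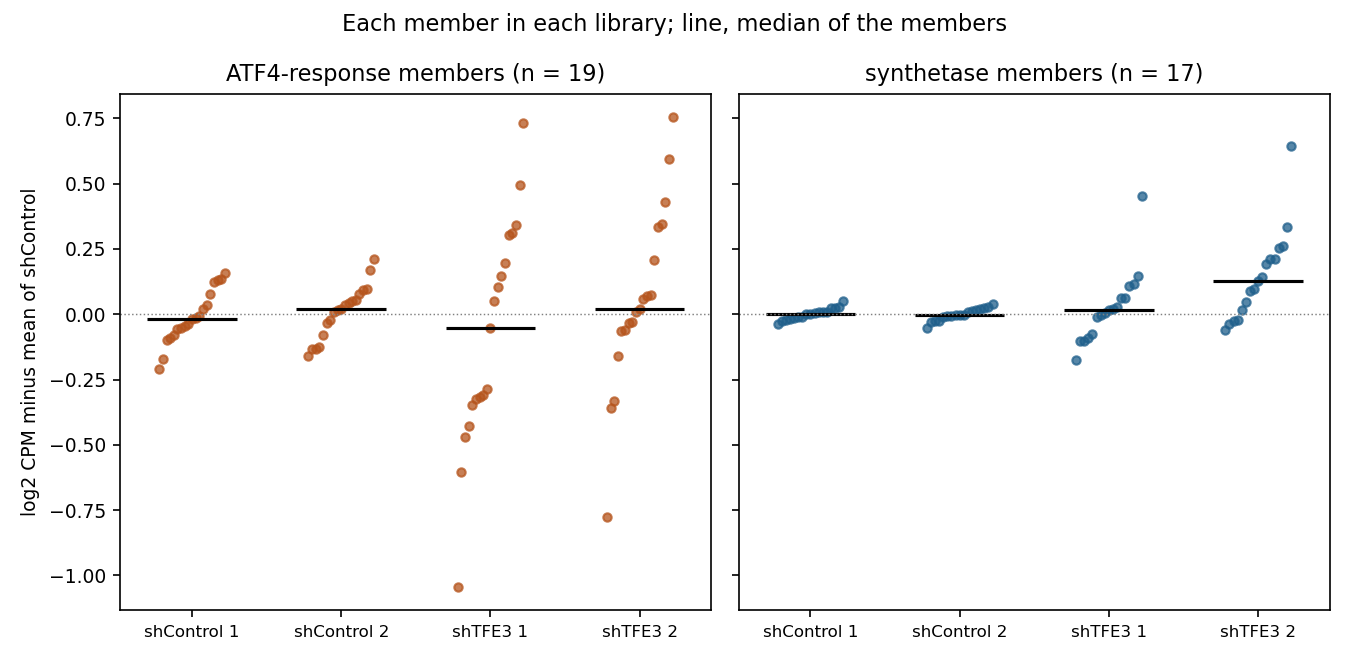
Log2 CPM of each tested member in each library, minus the mean of that gene over the control libraries, sorted within each library; lines mark the median of the members. ATF4-response genes (left) scatter on both sides of 0 in shTFE3, and synthetases (right) lie higher in shTFE3 replicate 2 than in shTFE3 replicate 1.

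The knockdown libraries differed from each other in the same direction for nearly all members. All 17 synthetases were higher in shTFE3 replicate 2 than in shTFE3 replicate 1, with a median difference of 0.12 in log2 CPM. Between the control libraries 7 of 17 were higher in replicate 2, with a median of -0.01. Of the ATF4-response genes 15 of 19 were higher in shTFE3 replicate 2, with DDIT3 (0.57), CHAC1 (0.44), ATF4 (0.34) and TRIB3 (0.30) at the top. ASNS (-0.14), CBS (-0.12), ATF3 (-0.08) and ATF5 (-0.06) were lower there. Over all genes tested the share higher in shTFE3 replicate 2 was 50.1%, and 53.8% over genes whose mean reached 1000 counts. Between the control libraries the shares higher in replicate 2 were 50.6% and 47.4%. The part of this difference in the synthetase calls was not tested. Without shTFE3 replicate 2, WARS1 was the only synthetase that passed (log2 fold change 0.45, edgeR adjusted p 0.0247), and without shTFE3 replicate 1 WARS1, KARS1 and EPRS1 passed.

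**Figure D4:**
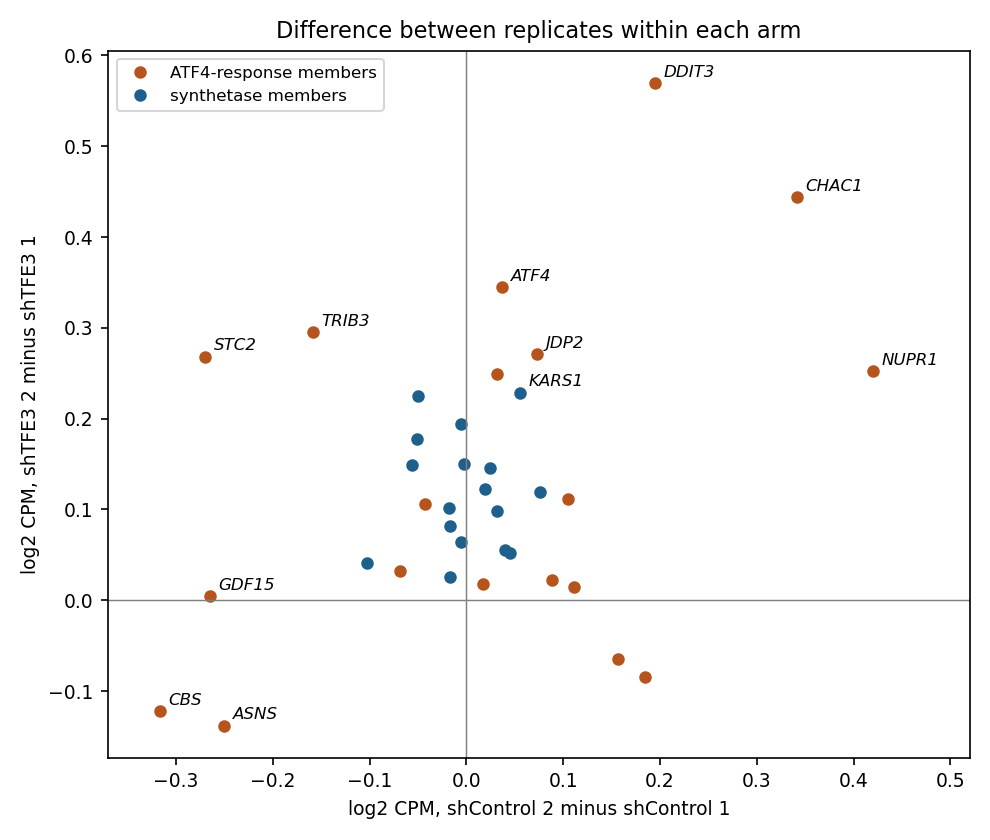
Difference in log2 CPM between the replicates of shTFE3 (vertical) and of shControl (horizontal) for each tested member. All 17 synthetases (blue) lie above 0 on the vertical axis and close to 0 on the horizontal one; DDIT3, CHAC1 and ATF4 lie highest.

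Levels between genes can be compared only per length, here as CPM per kilobase of summed exon in GENCODE release 29. That length joins the exons of all annotated transcripts of a gene, so the order of genes depends on the annotation too. In shControl the synthetases ran from 95.4 (AARS1), 76.3 (GARS1) and 69.7 (KARS1) to 11.9 (WARS1) and 9.94 (CARS1). IARS1, EPRS1 and RARS1 lay at 64.6, 63.6 and 63.5, and their control libraries overlapped on this scale. The ATF4-response genes covered a far wider range, with DDIT4 (115), CEBPB (102), ATF4 (77.7) and GDF15 (51.4) at the top and CHAC1 (1.53) and ASNS (0.277) at the bottom. The place of ASNS is uncertain, since it shares 1985 of its 4455 exonic bases with a same-strand gene. WARS1 reached 17.4 in shTFE3, with STC2 at 24.3 in shControl and 12.9 in shTFE3.

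**Figure D5:**
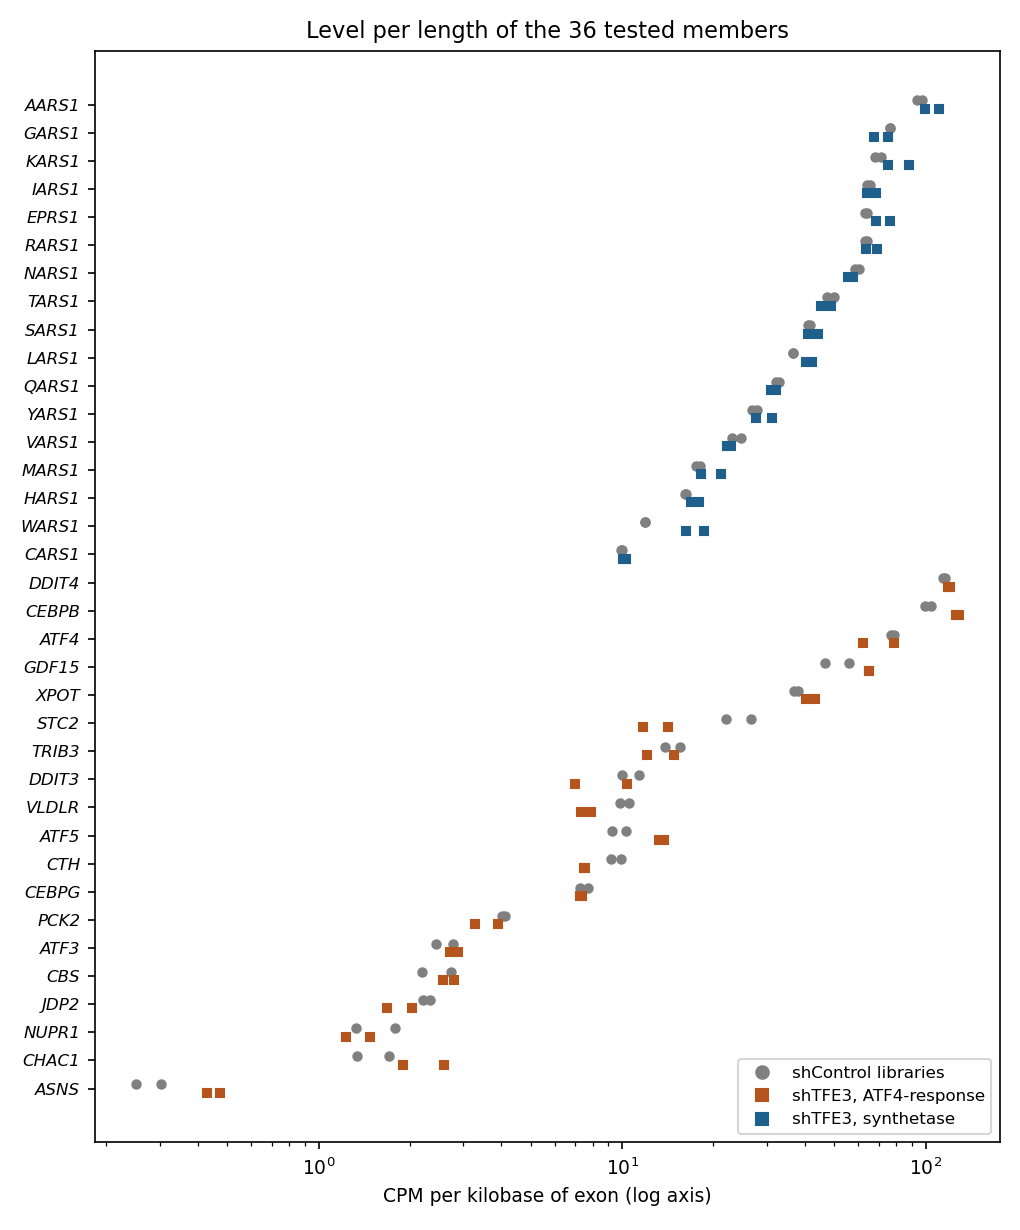
CPM per kilobase of exon (log axis) of each tested member in each library, ordered by the shControl mean within the synthetases and within the ATF4-response genes; circles are shControl and squares shTFE3. Synthetases lie between 9.94 and 95.4 in shControl, while ATF4-response genes run from 0.277 (ASNS) to 115 (DDIT4). The level of ASNS is uncertain, since part of its exons overlap a same-strand gene.

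Other genes of the same pathways were taken from lists that do not include the members. Their counts stand beside 10.3% rising and 12.9% falling over all genes tested. Among genes whose mean reached 1000 counts, 15.4% rose and 19.8% fell. Of 10 genes of serine, proline and one-carbon synthesis and related ATF4 targets, 4 rose and 1 fell (median log2 fold change 0.09). The 3 enzymes that make serine all rose. PSPH, the last step, had 46.2 and 48.5 CPM in shControl and 67.3 and 72.1 CPM in shTFE3 (log2 fold change 0.56, edgeR adjusted p 1.68e-06). PHGDH, the first step, rose by 0.36 (edgeR adjusted p 0.000388) and PSAT1 by 0.27 (0.000739). SESN2, a brake on mTORC1, rose by 0.27 (0.00736), but not by DESeq2 (0.0605) nor without shControl replicate 2 (0.0762), shTFE3 replicate 1 (0.0528) or shTFE3 replicate 2 (0.124). ALDH18A1, which starts proline synthesis and was named after its values were seen, fell by 0.20 (0.0103), and did not pass without shControl replicate 1 (0.131), shTFE3 replicate 1 (0.0866) or shTFE3 replicate 2 (0.0896). PHGDH did not pass without shTFE3 replicate 2 (0.0598). Of 9 tested amino acid transporters 2 rose and 0 fell (1 at an unadjusted p, 0 by DESeq2 and limma-voom). SLC1A5, a glutamine carrier, had 169 and 160.1 CPM against 221 and 236 CPM (0.47, edgeR adjusted p 1.11e-06), and SLC6A9, a glycine carrier, rose by 0.67 (0.0163) from 2.70 and 2.41 CPM. SLC6A9 did not pass by DESeq2 (0.262), nor without shControl replicate 2 (0.137), shTFE3 replicate 1 (0.116) or shTFE3 replicate 2 (0.0976).

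The genes of endoplasmic reticulum protein folding fell where they passed. Of 15, 8 fell and 0 rose, also 0 at an unadjusted p and 0 by DESeq2 and limma-voom, with a median log2 fold change of -0.19. Over all genes tested 12.9% fell and 10.3% rose, shares that apply also to the eIF2 genes below. CALR, a calcium-binding chaperone, had 998 and 985 CPM in shControl and 640 and 719 CPM in shTFE3 (log2 fold change -0.55, edgeR adjusted p 8.22e-08). HSP90B1 fell by 0.41 (2.75e-06), PDIA4, a disulfide isomerase, by 0.35 (3.06e-05) and DNAJB9 by 0.41 (0.000587). CALR, HSP90B1 and PDIA4 passed also without any 1 library, while 3 to 7 of the 8 calls passed in those fits. Of 16 genes of the eIF2 kinases, eIF2, its exchange factor and its phosphatase, 3 rose and 0 fell (2 at an unadjusted p, 0 by DESeq2 and limma-voom). They were GCN1, the activator of the kinase GCN2 (0.33, edgeR adjusted p 6.14e-05), PPP1R15B, which directs dephosphorylation of eIF2 (0.24, 0.00295), and EIF2AK2, the kinase PKR (0.17, 0.0334). GCN1 passed also without any 1 library. PPP1R15B did not pass without shControl replicate 2 (0.0528), shTFE3 replicate 1 (0.0721) or shTFE3 replicate 2 (0.0566). EIF2AK2 did not pass by DESeq2 (0.0824), with a replicate block (0.0615) or without any 1 library (0.106 to 0.253).

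The remaining tRNA charging genes did not move as a group. For comparison, 10.3% of all genes tested rose and 12.9% fell. Of 17 mitochondrial synthetases 0 rose (2 at an unadjusted p, 0 by DESeq2 and limma-voom) and 3 fell, among them CARS2 by 0.36 (edgeR adjusted p 0.000626) and IARS2 by 0.17 (0.0242). MARS2 had 0.27 and did not pass (0.0716). Of the 3 falls, 1 and 2 passed without shControl replicates 1 and 2, and 0 and 1 without shTFE3 replicates 1 and 2. CARS2 did not pass without shTFE3 replicate 1 (0.0915), and IARS2 did not pass without composition factors (0.0749) or without any 1 library (0.0883 to 0.179). Of the 6 other cytosolic charging genes and complex scaffolds, FARSB, a subunit of the phenylalanine enzyme, rose by 0.24 (0.0165), though not by DESeq2 (0.0878) nor without shControl replicate 1 (0.102) or shTFE3 replicate 2 (0.270). Translation factors, in a list that also holds the regulator EIF4EBP1, were taken as other genes of protein synthesis. Among the 14 tested, PABPC1 rose by 0.15 (0.0347) and EIF5 fell by 0.23 (0.00364). PABPC1 did not pass with a replicate block (0.0740) or without any 1 library (0.0665 to 0.274), and EIF5 passed without shControl replicate 2 but not without shControl replicate 1 (0.0955), shTFE3 replicate 1 (0.0825) or shTFE3 replicate 2 (0.0702). Targets of p53, whose list shares SESN2 with that of the serine genes and related ATF4 targets, rose in 6 of 10. They were led by CDKN1A (0.70, 6.55e-10) and MDM2 (0.34, 0.000175). Of these 6 rises, 4 passed by DESeq2, 4 without shTFE3 replicate 2 and 1, CDKN1A, without shTFE3 replicate 1 (MDM2 0.0645).

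The authors' deposited table of changed genes listed 546 genes, and the smallest absolute log2 fold change in it was 0.585. STC2 was the only member in it, with a log2 fold change of -0.91 (lfcSE 0.185, adjusted p 2.05e-05 in the authors' deposited table).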

How the data were processed

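Polyadenylated RNA of 4 libraries was sequenced as paired reads. The authors deposited raw counts for each Ensembl gene identifier. The build was hg38, and the tools Trim Galore, STAR, featureCounts and DESeq2, per the submitters' processing notes. Annotation, strand setting and versions: not given in the sources used here. The authors' deposited table of changed genes holds a mean normalized signal, log2 fold changes, a test score and p-values, used only as the authors' own values.

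Groups came from the sample titles. The counts as deposited were tested with edgeR 4.0.16 in R 4.3.3: TMM factors, filterByExpr, the arm as the only term and the quasi-likelihood test over 15950 genes, with Benjamini-Hochberg adjustment at 0.05. The biological coefficient of variation was 4.16%, on 2 residual degrees of freedom. The dispersion estimate had 22.4 prior degrees of freedom, drawn from all genes tested. Each library was kept as a replicate. Replicates differed by more than sampling noise (chi-square per degree of freedom 2.14 for shControl, 3.63 for shTFE3). That does not show whether they were separate infections, and the fit assumed the same dispersion in both groups. CPM used TMM factors, and log2 CPM a prior count of 2. A name table gave symbols for 61415 identifiers. GENCODE release 29 gave coordinates and exon lengths, and the annotation used for counting may be another.

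Members and lists were chosen with earlier results of these data known. All members are named, and from each other list up to 4 genes with the smallest p, not all of which are reported here. ALDH18A1 was named besides. Alternatives were other normalizations and filters, DESeq2 1.42.0, limma-voom (limma 3.58.1), a replicate block, and each library left out. The procedure was checked on simulated data.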

Additional observations from a re-analysis of the deposited data

How the results depend on the processing

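Over 11 alternatives, STC2, VLDLR, CEBPB and WARS1 passed in 10. With no filter on low counts, 384 genes were called in all and 0 ATF4-response genes rose, 0 fell and 0 synthetases rose (5, 3 and 3 at an unadjusted p under 0.05, edgeR); the cause was not tested. DESeq2 called 1959 genes, with 3 ATF4-response genes rising and 4 synthetases rising; the cause was not tested. Leaving out 1 library at a time gave 1043 to 2514 genes called, 1 to 3 ATF4-response genes that rose, 2 to 3 that fell and 1 to 3 synthetases that rose, with fewer samples in each fit. In those fits 1 arm has a single library, assumed to vary like the other arm. RLE factors and a minimum of 50 counts in 2 libraries lost no call among the members they tested. Deviations of same-numbered libraries from their group means had a correlation of -0.07 over 12183 genes. With 2 libraries per group this cannot settle whether equal numbers mark a shared infection or preparation, and the labels do not say. With a replicate block, 3558 genes were called, 4 ATF4-response genes rose, 3 fell and 4 synthetases rose, and XPOT did not pass (edgeR adjusted p 0.0710). Depth limits ASNS (19 to 38 counts) and CHAC1 (47 to 95 counts).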

Other observations

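The difference between the shTFE3 libraries was not alike over the gene lists. Genes were higher in shTFE3 replicate 2 for 9 of 10 serine and one-carbon genes, 12 of 15 folding genes, 12 of 14 translation factors and 5 of 6 other cytosolic charging genes. The counts were 10 of 17 for mitochondrial synthetases, 9 of 16 for eIF2 genes and 3 of 10 for p53 targets. The share over all genes tested was 50.1%, and 53.8% over genes whose mean reached 1000 counts. Among the folding genes 13 of 15 were also higher in shControl replicate 2 than in shControl replicate 1, while 4 of 14 translation factors were. That share was 50.6% over all genes tested and 47.4% over genes whose mean reached 1000 counts. SLC7A5, a leucine carrier, had 173 and 166 CPM in shControl and 165 and 226 CPM in shTFE3.

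No synthetase with a TGATGNAA match in the promoter window passed, but the numbers are small and 10.3% of all genes tested rose. Of the 7 with a match 0 rose by edgeR (2 at an unadjusted p under 0.05, 0 by DESeq2 and limma-voom), with a median log2 fold change of 0.03 and a range from -0.10 to 0.15. Of the 7 with a window and no match, 3 rose (EPRS1, KARS1 and WARS1), with a median of 0.10. LARS1, which also rose, had no window. In the ATF4-response genes CHAC1 was the only one of 5 tested genes with a match that passed, and 7 of the 13 without a match passed. Beside these counts, 23.3% of all genes tested passed. The split was described after the values were seen and was not tested.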
